A study of Mus musculus with 4 samples.

Results

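Cx3cr1, Ccr2, Csf1r, Mertk, Mrc1, Cd163, Lyve1, Trem2 and Tyrobp are 9 genes whose products sit on the surface of macrophages and carry signals or cargo into the cell. They were taken by symbol from a table of 24062 genes, and no measured value entered the rule. Each was found as 1 row of the table, and all 9 passed the low-count filter of 1 CPM (counts scaled to library depth) in at least 1 library, which left 14700 genes.

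Peripheral nerve holds resident macrophages in the endoneurium, among the axons, and in the outer epineurium, and blood monocytes add to both after injury or when Schwann cells lose Nf1. CSF1R, the receptor for the growth factors CSF1 and IL-34, keeps macrophages alive. CX3CR1 binds fractalkine and CCR2 binds the monocyte chemokine CCL2. TREM2 senses lipids and signals through the adaptor DAP12, which Tyrobp encodes. MERTK takes up dying cells and myelin debris, CD163 clears haptoglobin-haemoglobin complexes, the mannose receptor MRC1 (CD206) takes up glycoproteins, and LYVE1 binds hyaluronan on vessel-associated macrophages and on lymphatic endothelium. High CX3CR1 is known from endoneurial macrophages, and high MRC1, CD163 and LYVE1 from perivascular and epineurial ones.

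RNA sequencing was done on sciatic nerve of 4-month-old C57BL/6 mice, with 1 library for each of 4 genotypes. The WT library has the genotype label C57BL/6, PKO is P2RY14-/-, NF1 is Nf1fl/fl; Dhh Cre, and PKO-NF1 is P2RY14-/- Nf1fl/f Dhh Cre. Dhh-Cre is a desert hedgehog driver that acts in the Schwann cell lineage, so Nf1 was targeted in that lineage and not in macrophages, whereas the P2ry14 allele is not tied to a cell type by its label. The labels give WT and PKO neither floxed alleles nor Cre, give no number or sex of the animals, and call the NF1 library a repeat. With 1 library per genotype there was no replicate check. Every interval below is a 95% exact (Clopper-Pearson) interval that covers counting error only, and reads copied by PCR without molecular identifiers are not independent molecules.

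Depth ran from 14111201 to 20362685 counts, and a count of 0 allows a level of up to 3 counts, or 0.152 to 0.183 CPM. The NF1 library stood apart: 17 skeletal muscle genes took 6.20% of its counts and 0.0141% to 0.123% elsewhere. Removing those genes before scaling moved no log2 ratio of the 9 genes by more than 0.0023. Ribosomal protein genes took 14.5% and 11.1% of counts in PKO and PKO-NF1 against 3.64% and 6.75% in WT and NF1. The sex-linked transcripts also differed, with Xist at 9 counts in PKO-NF1, Ddx3y at 0 counts in NF1, and both present in WT (10304 and 813 counts) and PKO (4948 and 396 counts). Transcript length and GC content explained 9.03% to 32.1% of the variance of the log2 ratios over all genes, depending on the pair of libraries, so each ratio was also computed with that trend removed. The trend-removed values below use RefSeq-paired transcripts, a choice added after the data were seen, and the planned version with the longest GENCODE transcripts is given where its call differs. The part that sex, muscle and these library differences have in the results was not tested.

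Beside the 9 genes, 16 other macrophage markers were read, all of which were detected in every library. Their detection in whole nerve does not show which cells the counts of the 9 genes came from. Their summed level was 1698, 2685, 2002 and 3967 CPM in WT, PKO, NF1 and PKO-NF1. The lysozyme gene Lyz2 made up 42.0% to 55.3% of that sum. The F4/80 gene (listed as Emr1) was at 35.6, 44.0, 36.1 and 59.6 CPM in the same order. Fewer macrophages and less RNA per macrophage cannot be told apart in whole nerve.

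The promoters show how differently these genes begin. RefSeq windows of 250 bases before the start site (GRCm38.p6) were given for 6 of the 9 genes: Cx3cr1, Ccr2, Cd163, Mrc1, Mertk and Trem2. The run GAGGAA was searched on both strands (TTCCTC on the other) because it is a core of sites for ETS factors such as PU.1, the myeloid master regulator, and capitals mark it below. The 6 windows are printed so that the genes with and without the run can be compared. The start sites are those of the RefSeq promoter table, so the Ccr2 window lies inside the gene span given below and the Cd163 window ends within it.
Cx3cr1 promoter, chr9:120068297-120068546, minus strand: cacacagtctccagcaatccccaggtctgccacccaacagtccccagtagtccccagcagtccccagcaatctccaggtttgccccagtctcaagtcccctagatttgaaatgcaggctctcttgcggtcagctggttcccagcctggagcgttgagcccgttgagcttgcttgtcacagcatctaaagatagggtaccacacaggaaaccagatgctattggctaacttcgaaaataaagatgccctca
Ccr2 promoter, chr9:124101933-124102182, plus strand: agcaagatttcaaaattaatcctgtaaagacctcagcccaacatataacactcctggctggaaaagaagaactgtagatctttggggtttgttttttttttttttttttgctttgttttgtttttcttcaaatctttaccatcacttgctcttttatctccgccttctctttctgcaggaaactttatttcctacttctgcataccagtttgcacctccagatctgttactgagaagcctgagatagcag
Cd163 promoter, chr6:124304401-124304650, plus strand: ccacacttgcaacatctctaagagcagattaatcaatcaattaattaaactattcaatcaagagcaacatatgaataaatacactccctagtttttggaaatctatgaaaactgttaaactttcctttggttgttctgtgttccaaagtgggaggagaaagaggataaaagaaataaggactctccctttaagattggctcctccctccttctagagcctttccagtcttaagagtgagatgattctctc
Mrc1 promoter, chr2:14229164-14229413, plus strand: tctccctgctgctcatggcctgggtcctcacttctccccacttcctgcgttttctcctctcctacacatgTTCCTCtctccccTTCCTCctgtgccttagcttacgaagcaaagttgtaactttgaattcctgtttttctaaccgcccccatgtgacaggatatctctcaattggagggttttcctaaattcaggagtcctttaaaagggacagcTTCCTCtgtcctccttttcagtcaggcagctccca
Trem2 promoter, chr17:48346151-48346400, plus strand: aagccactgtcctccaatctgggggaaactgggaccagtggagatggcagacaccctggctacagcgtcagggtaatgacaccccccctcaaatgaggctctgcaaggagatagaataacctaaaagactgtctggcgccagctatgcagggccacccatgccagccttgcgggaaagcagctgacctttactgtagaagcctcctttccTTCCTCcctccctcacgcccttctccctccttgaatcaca
Mertk promoter, chr2:128698665-128698914, plus strand: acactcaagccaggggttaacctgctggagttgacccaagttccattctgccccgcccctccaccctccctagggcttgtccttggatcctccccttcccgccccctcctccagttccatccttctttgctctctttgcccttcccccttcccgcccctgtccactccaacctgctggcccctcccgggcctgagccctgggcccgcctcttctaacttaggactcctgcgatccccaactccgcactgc
Mrc1 held 3 such runs, all on the strand opposite to the gene, from 180 to 175, 167 to 162 and 35 to 30 bases before the start. Trem2 held 1, also on the opposite strand, from 40 to 35 bases before the start. The windows of Cx3cr1, Ccr2, Cd163 and Mertk held none. Across all 32851 windows of the same length, 23.3% held the run. TATAAA, the TATA box letters, was in none of the 6 windows on either strand and in 12.4% of all windows. GC content was lowest in the windows of Cd163 (36.8%) and Ccr2 (37.2%), followed by Mrc1 (49.6%), Cx3cr1 (53.6%), Trem2 (56.0%) and Mertk (63.6%).

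The fractalkine receptor Cx3cr1 gave the clearest contrast by Nf1 genotype. It lies at chr9:120048683-120068296 (GRCm38, minus strand). Its level was 31.6 CPM in WT, 14.2 CPM in PKO, 71.6 CPM in NF1 and 56.7 CPM in PKO-NF1. Both libraries with Nf1 deletion were above both without it. Cx3cr1 was 2.26-fold above WT in NF1 (interval 2.05 to 2.51) and 3.99-fold higher in PKO-NF1 than in PKO (3.47 to 4.60). With the length and GC trend removed it was 2.54-fold and 3.97-fold higher. Without P2ry14 it was lower: 2.22-fold in PKO against WT (1.91 to 2.59) and 1.26-fold in PKO-NF1 against NF1. A predicted gene, Gm33858, overlaps Cx3cr1 in RefSeq, and a longer GENCODE model of Cx3cr1 runs across Xirp1, a striated muscle gene counted 179 times in NF1 and 5 to 18 times in the other libraries.

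Ccr2, the receptor that brings monocytes out of the blood, lies at chr9:124101918-124109140. Its level was 44.7 CPM in WT, 40.9 CPM in PKO, 77.4 CPM in NF1 and 106.2 CPM in PKO-NF1. WT and PKO overlapped within their counting intervals, and both Nf1-deleted libraries were above them. The ratio was 1.73-fold above WT in NF1 (1.59 to 1.89) and 2.59-fold higher in PKO-NF1 than in PKO (2.38 to 2.83). These contrasts shrank once the length and GC trend was removed, to 1.19-fold and 1.38-fold, so that the second no longer reached 2-fold. With the longest transcripts its log2 ratio was 1.04, still past 2-fold. Ccr2 transcripts have the lowest GC content of the 9 genes, 38.6%.

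Trem2, at chr17:48346401-48352276, kept the same order as Ccr2 in the Nf1-deleted libraries. It was measured at 16.5 CPM in WT, 21.7 CPM in PKO, 28.0 CPM in NF1 and 42.0 CPM in PKO-NF1. Neither Nf1 ratio reached 2-fold: 1.69-fold above WT in NF1 (1.46 to 1.96) and 1.94-fold higher in PKO-NF1 than in PKO (1.71 to 2.20). With the trend removed these were 1.42-fold and 2.16-fold, and with the longest transcripts the log2 ratios were 1.09 and 1.23, both past 2-fold. Its adaptor gene Tyrobp, at chr7:30413782-30417582, followed another order, with 61.1 CPM in WT, 209.7 CPM in PKO, 89.8 CPM in NF1 and 218.0 CPM in PKO-NF1. Both P2ry14-deleted libraries were high and did not differ beyond their counting intervals. Tyrobp was 3.43-fold higher in PKO than in WT (3.20 to 3.68) and 2.43-fold higher in PKO-NF1 than in NF1 (2.29 to 2.57). The Tyrobp transcript is the shortest of the 9, at 564 bases, and with the length and GC trend removed these ratios came down to 1.46-fold and 1.87-fold. Hcst, which encodes the related adaptor DAP10 and lies 130 bases from Tyrobp, had only 15 to 66 counts per library.

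**Figure D1:**
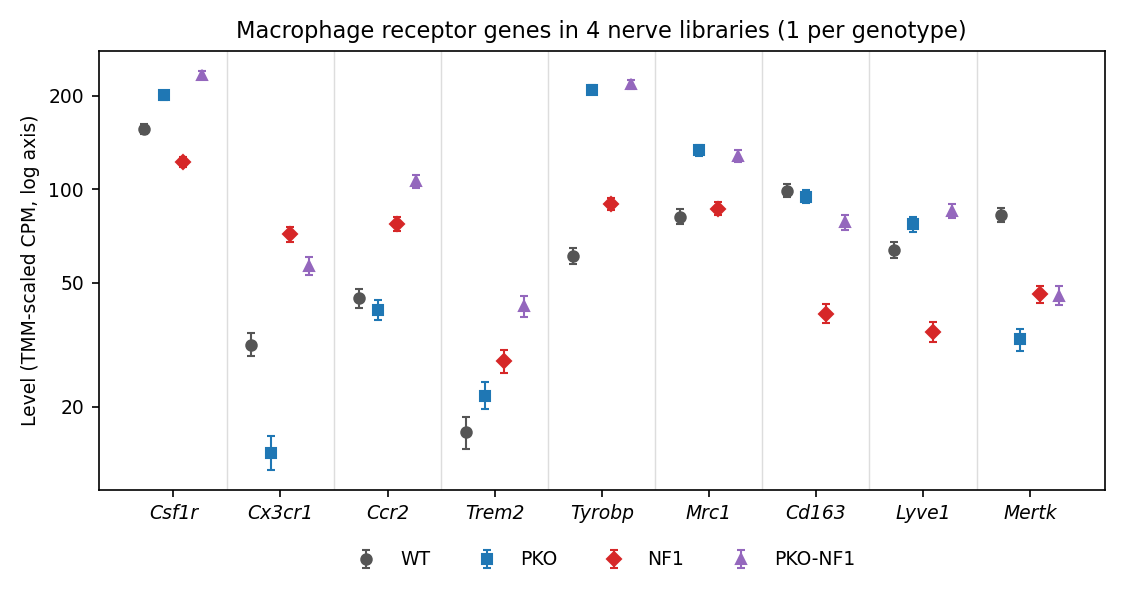
Level of each of the 9 genes (TMM-scaled CPM, log axis) in the WT, PKO, NF1 and PKO-NF1 libraries, 1 library per genotype; bars are 95% counting intervals. Cx3cr1, Ccr2 and Trem2 were higher in both Nf1-deleted libraries than in both others, Tyrobp was highest in both P2ry14-deleted libraries, and Cd163 and Lyve1 were lowest in NF1.

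Csf1r, the growth factor receptor at chr18:61105572-61131139, was the most even of the signalling receptors. Its level was 156 CPM in WT, 201 CPM in PKO, 123 CPM in NF1 and 234 CPM in PKO-NF1. The intervals of the 4 libraries did not overlap, yet no pair differed by 2-fold. Csf1r was 1.28-fold below WT in NF1 and 1.16-fold higher in PKO-NF1 than in PKO. Between the Nf1-deleted libraries it was 1.91-fold higher in PKO-NF1 than in NF1, and 2.26-fold with the trend removed. In NF1 against WT that removal took the log2 ratio from -0.35 to 0.04.

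The scavenger receptor Cd163, at chr6:124304636-124330529, was lowest in NF1. Its level was 99.0 CPM in WT, 94.7 CPM in PKO, 39.8 CPM in NF1 and 78.3 CPM in PKO-NF1, and WT and PKO overlapped. Cd163 was 2.49-fold below WT in NF1 (2.28 to 2.71), or 2.24-fold with the trend removed. PKO-NF1 was 1.21-fold below PKO and 1.97-fold above NF1 (1.80 to 2.15). Removing the trend took the ratio of PKO-NF1 to NF1 past 2-fold, to 2.10-fold, or a log2 ratio of 1.04 with the longest transcripts. Lyve1, at chr7:110850607-110862953 on the minus strand, was also lowest in NF1, with 63.8 CPM in WT, 77.1 CPM in PKO, 34.9 CPM in NF1 and 85.1 CPM in PKO-NF1. It was 1.83-fold below WT in NF1 (1.66 to 2.02) and 2.44-fold higher in PKO-NF1 than in NF1 (2.23 to 2.68). With the trend removed it was 2.04-fold below WT in NF1, past 2-fold. In PKO-NF1 against PKO it was 1.10-fold higher, and 1.24-fold lower with the trend removed.

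Lyve1 is shared with lymphatic endothelium, so 7 lymphatic markers were read beside it. Their summed level was 381, 290, 301 and 321 CPM in WT, PKO, NF1 and PKO-NF1. Reln was the largest part of that sum in every library, at 271, 111, 196 and 148 CPM. Ccl21a was at 0 in every library. Prox1, the lymphatic master regulator, was at 1.65, 2.53, 1.88 and 0.732 CPM, and Flt4, the VEGF-C receptor, at 18.8, 26.9, 5.99 and 7.02 CPM, in the same order. Pdpn was highest in PKO-NF1, as Lyve1 was, at 50.9, 85.7, 56.3 and 118.7 CPM, and Mmrn1 was at 23.5, 49.1, 26.5 and 37.3 CPM. The markers thus did not share 1 order over the libraries. The part of lymphatic cells in the Lyve1 counts was not tested.

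Mrc1, at chr2:14229414-14332023, was higher in both P2ry14-deleted libraries. The libraries with P2ry14 had 81.8 CPM (WT) and 86.7 CPM (NF1), and those without it 134 CPM (PKO) and 128 CPM (PKO-NF1). The first 2 overlapped within counting error, as did the last 2. Mrc1 was 1.63-fold higher in PKO than in WT and 1.48-fold higher in PKO-NF1 than in NF1, both under 2-fold. With the length and GC trend removed these were 1.74-fold and 1.67-fold. The summed macrophage markers were also higher in both P2ry14-deleted libraries. Scaled to those markers, Mrc1 was 1.03-fold higher in PKO than in WT, while PKO-NF1 was 1.34-fold below NF1. That scale carries the trend. Removing it took the markers' median log2 ratio from 0.51 to 0.03 in PKO against WT, and from 0.83 to 0.56 in PKO-NF1 against NF1. Mir511 lies inside Mrc1, and its reads cannot be told apart from those of its host.

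Mertk, at chr2:128698915-128803162, was highest in WT. It was measured at 82.7 CPM in WT, 32.9 CPM in PKO, 45.9 CPM in NF1 and 45.5 CPM in PKO-NF1. WT stood above the other libraries, PKO lay below them, and NF1 and PKO-NF1 overlapped. Mertk was 2.51-fold lower in PKO than in WT (2.28 to 2.77), or 2.46-fold with the trend removed, and 1.80-fold below WT in NF1 (1.65 to 1.96). With P2ry14 already absent the Nf1 ratio was 1.38-fold higher, and 1.07-fold lower when scaled to the macrophage markers.

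Levels between genes were compared only as CPM per kilobase of RefSeq transcript. In WT, Tyrobp was highest at 108 CPM per kilobase and Csf1r second at 40.4 CPM per kilobase. Cd163 (22.3), Lyve1 (22.0) and Mertk (19.2) followed, and Mrc1 (15.2), Trem2 (15.2) and Ccr2 (14.9) were close together on that scale. Cx3cr1 was lowest at 8.43 CPM per kilobase. Tyrobp and Csf1r held the first 2 places in all 4 libraries. The lowest place went to Cx3cr1 in PKO (3.79), to Cd163 in NF1 (8.95) and to Mertk in PKO-NF1 (10.6 CPM per kilobase).

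Calls required a ratio of 2-fold or more, in either direction, and an interval without 1. In NF1 against WT, 1 of the 9 genes was higher (Cx3cr1) and 1 lower (Cd163), where 10.4% of all 14700 genes were higher and 6.32% lower. In PKO-NF1 against PKO, 2 were higher (Cx3cr1 and Ccr2) and 0 lower, against 5.20% and 9.71% of all genes. PKO against WT had 1 higher (Tyrobp) and 2 lower (Cx3cr1 and Mertk), against 10.0% and 5.22%. PKO-NF1 against NF1 had 2 higher (Tyrobp and Lyve1) and 0 lower, against 7.90% and 13.8%. Cx3cr1 was the 1 gene called higher in both Nf1 pairs, as were 1.29% of all genes, and 0 of the 9 were called lower in both, as were 2.61%. The median log2 ratio of the 9 genes was 0.08, 0.22, 0.27 and 0.59 in these pairs, and that of all genes -0.00, -0.01, -0.08 and -0.01. Each library enters 2 pairs, so the calls of pairs that share a library are not independent.

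**Figure D2:**
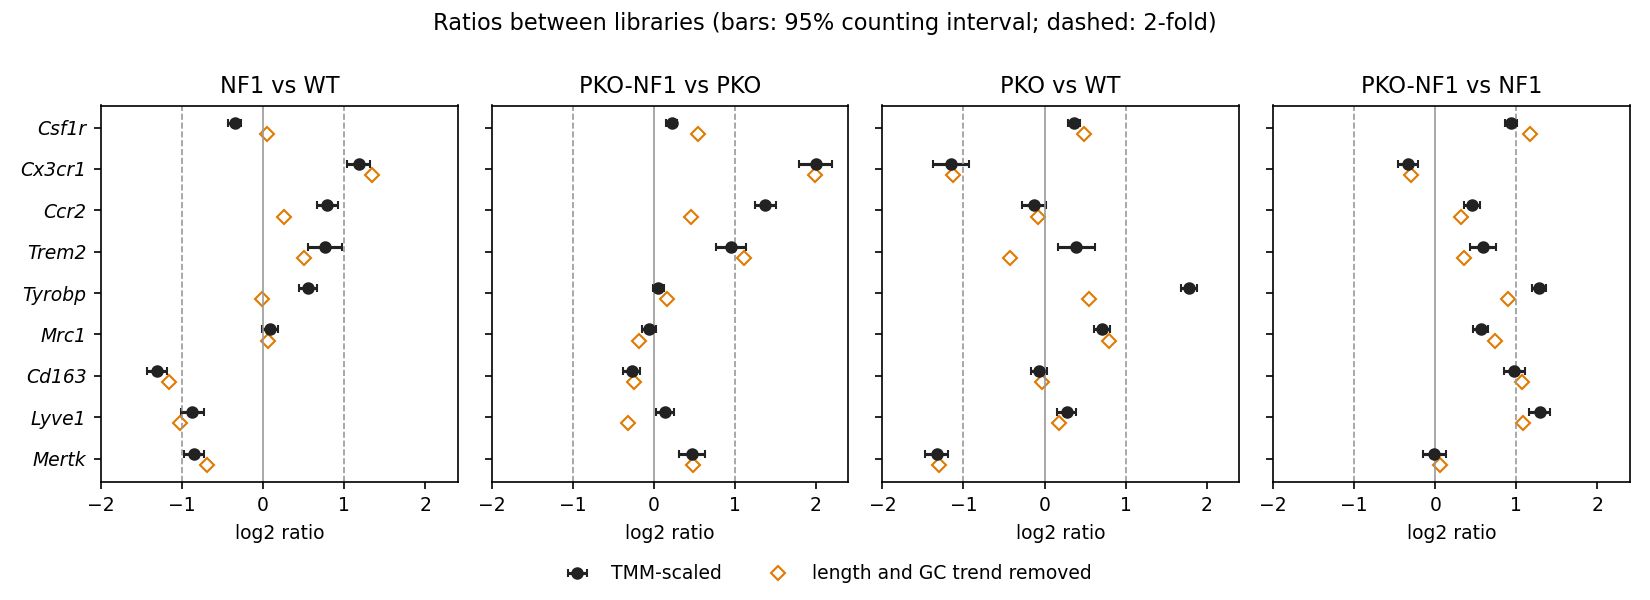
log2 ratio of each gene in the 4 pairs of libraries, from TMM-scaled CPM (filled, with 95% counting intervals) and with the length and GC trend removed (open); dashed lines mark 2-fold. Cx3cr1, Cd163 and Mertk moved little with the trend, though Cd163 in PKO-NF1 against NF1 went from 1.97-fold to 2.10-fold. Ccr2 in PKO-NF1 against PKO and Tyrobp in both P2ry14 pairs dropped below 2-fold with the RefSeq transcripts shown. With the longest transcripts Ccr2 kept a log2 ratio of 1.04.

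The Nf1 ratio was then compared between nerves with and without P2ry14. Of the 9 genes, 4 were above 1 in both Nf1 pairs (Cx3cr1, Ccr2, Trem2 and Tyrobp), 1 was below 1 in both (Cd163) and 4 lay on opposite sides. Some of these sides were within counting error. The interval included 1 for Tyrobp in PKO-NF1 against PKO (1.04-fold, 0.993 to 1.09). It also did for Mrc1 in NF1 against WT (1.06-fold higher, 0.987 to 1.14) and in PKO-NF1 against PKO (1.04-fold lower, 0.984 to 1.11). Sides were not counted over all genes. The Nf1 ratio was larger without P2ry14 by 0.82 on the log2 scale for Cx3cr1 (0.57 to 1.06) and by 0.58 for Ccr2 (0.40 to 0.76). The difference was widest for Mertk at 1.32 (1.12 to 1.51), followed by Cd163 at 1.04 (0.88 to 1.20) and Lyve1 at 1.01 (0.84 to 1.19). Differences at least as large were seen for 10.9% of all genes (Mertk), 16.5% (Cd163), 17.1% (Lyve1), 23.7% (Cx3cr1) and 36.7% (Ccr2). Trem2 differed by 0.19, with an interval of -0.08 to 0.47 that includes 0. Tyrobp differed by -0.50, and by 0.17 once the trend was removed. Mrc1 differed by -0.15, and by 0.15 when scaled to total counts alone. These intervals cover counting error, and no difference between pairs was tested against a spread between animals.

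**Figure D3:**
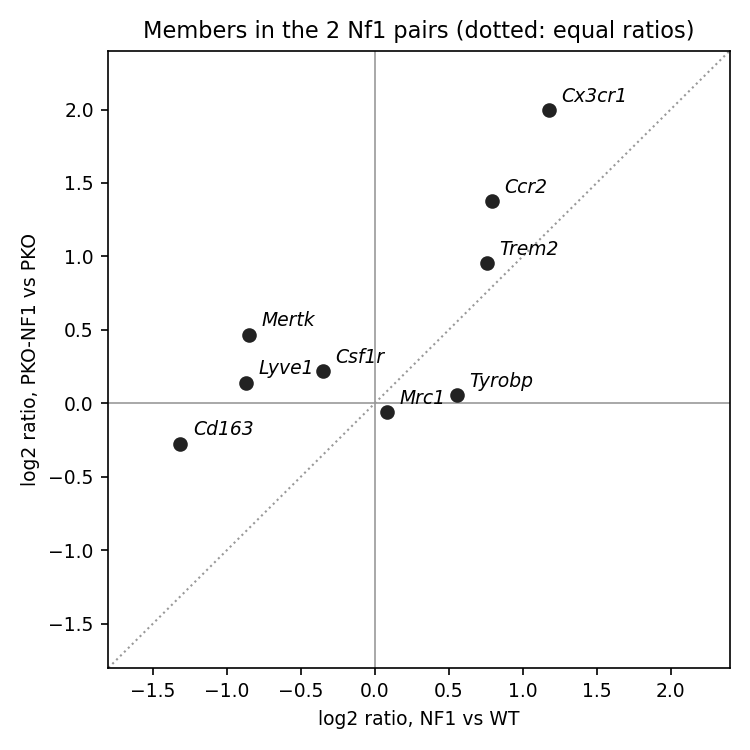
log2 ratio of PKO-NF1 to PKO (vertical) against log2 ratio of NF1 to WT (horizontal), 1 point per gene; the dotted line marks equal ratios. Cx3cr1, Ccr2 and Trem2 lie in the upper right, Cd163 in the lower left, and Mertk, Lyve1 and Csf1r to the left of 0 and above it.

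A model with 1 term for Nf1 and 1 for P2ry14 used all 4 libraries and had 1 residual degree of freedom, which is the departure from additivity. The edgeR quasi-likelihood test called 0% of 14105 genes for the Nf1 term after Benjamini-Hochberg adjustment, with 2944 genes at an unadjusted p under 0.05 and 284 called by DESeq2. Cx3cr1 had the largest Nf1 term of the 9, a log2 value of 1.58 (SE 0.28) with an edgeR adjusted p of 0.168 and a DESeq2 adjusted p of 0.0105. Ccr2 followed at 1.08 (SE 0.25), with an edgeR adjusted p of 0.170 and a DESeq2 adjusted p of 0.0950. Trem2 was at 0.86 (SE 0.22), with an edgeR adjusted p of 0.177 and a DESeq2 adjusted p of 0.249. Both genes were higher in 2 of 2 pairs. For the P2ry14 term edgeR called 7 genes, or 0.0496%, with 3551 at an unadjusted p under 0.05 and 724 called by DESeq2. None of the 9 genes was among the 7. Tyrobp came nearest, with a log2 value of 1.53 (SE 0.29), an edgeR adjusted p of 0.142 and a DESeq2 adjusted p of 0.00286.

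Ratios of counts within a library do not depend on the scaling between libraries. They still carry the length and GC trend, which was not removed from them. In PKO against WT the trend-removed log2 ratios of Trem2 and Csf1r were -0.43 and 0.48 with RefSeq transcripts. With the longest transcripts they were 0.51 and 0.57. Per count of Csf1r, WT had 0.202 counts of Cx3cr1, PKO 0.0709, NF1 0.584 and PKO-NF1 0.243. Trem2 had 0.106, 0.108, 0.228 and 0.180 counts per count of Csf1r in the same order, so both Nf1-deleted libraries were above both others. Cd163 went the other way, at 0.633, 0.472, 0.325 and 0.335. Cx3cr1 and Cd163 thus diverged within libraries: there were 0.320 Cx3cr1 counts per Cd163 count in WT and 0.150 in PKO, and 1.80 in NF1 (1.65 to 1.97) and 0.724 in PKO-NF1. The ratio of Ccr2 to Cx3cr1 was higher in the P2ry14-deleted libraries, 2.88 in PKO and 1.87 in PKO-NF1, than in WT (1.41) and NF1 (1.08).

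Scaled to the summed macrophage markers instead, Cx3cr1 was 1.92-fold above WT in NF1 and 2.70-fold higher in PKO-NF1 than in PKO. Cd163 was then 2.93-fold below WT in NF1, Lyve1 2.16-fold lower and Mertk 2.12-fold lower. On that scale Ccr2 was 1.47-fold and 1.76-fold higher in the 2 Nf1 pairs. Mertk was 3.97-fold and Cx3cr1 3.51-fold lower in PKO than in WT. In PKO-NF1 against PKO, Csf1r (log2 -0.34), Mertk (-0.09), Tyrobp (-0.51) and Lyve1 (-0.42) turned from higher to lower. The median log2 ratio of all genes on that scale was -0.24 in NF1 against WT, -0.57 in PKO-NF1 against PKO, -0.74 in PKO against WT and -0.997 in PKO-NF1 against NF1, so these ratios stand beside a shift of all genes. That scale was added after the data were seen.

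**Figure D4:**
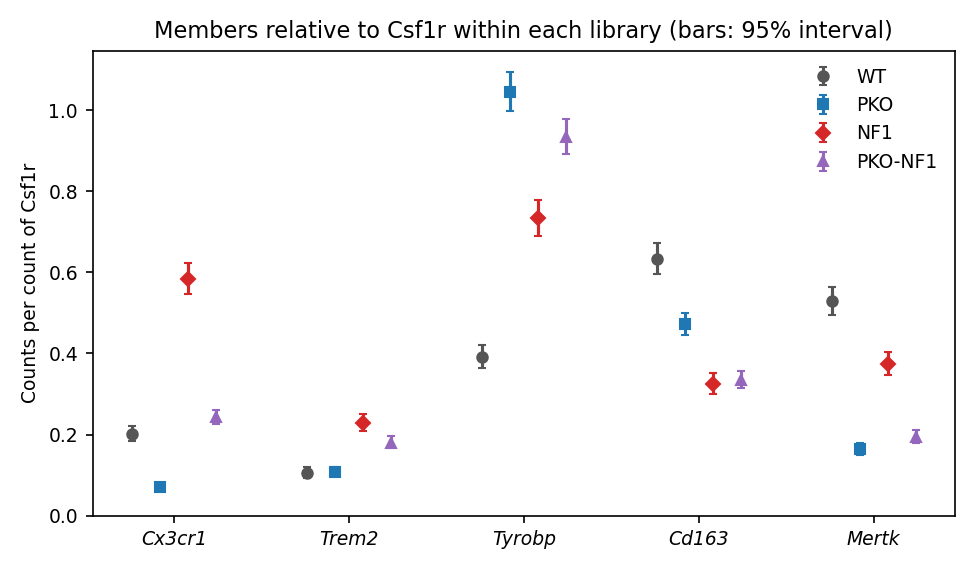
Counts of Cx3cr1, Trem2, Tyrobp, Cd163 and Mertk per count of Csf1r in each library, with 95% intervals. Cx3cr1 ran from 0.0709 in PKO to 0.584 in NF1, and Cd163 was lower in both Nf1-deleted libraries than in both others. The length and GC trend was not removed from these ratios.

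Among the ligands of these receptors, 11 of 12 listed genes passed the low-count filter. In NF1 against WT 3 were higher (Ccl2, Ccl7 and Ccl12) and 3 lower (Cx3cl1, Clu and Hp), and in PKO-NF1 against PKO 1 was higher (Ccl2) and 1 lower (Ccl12). The shares over all genes were 10.4% and 6.32% in the first pair and 5.20% and 9.71% in the second. With the trend removed, 1 was higher and 2 lower in the first pair, and 0 higher and 1 lower in the second. Of all 14700 genes, 1025 were then higher and 671 lower in the first pair, and 396 and 733 in the second. Fractalkine, Cx3cl1, was at 16.5 CPM in WT, 9.84 CPM in PKO, 7.26 CPM in NF1 and 9.82 CPM in PKO-NF1. It was thus 2.27-fold below WT in NF1 (1.85 to 2.80), where its receptor gene was higher, and did not differ beyond counting error between PKO-NF1 and PKO. Ccl2, the main ligand of CCR2, was at 13.8, 13.8, 34.5 and 27.9 CPM in WT, PKO, NF1 and PKO-NF1. It was 2.50-fold above WT in NF1 and 2.03-fold higher in PKO-NF1 than in PKO, and with the trend removed the log2 ratios were 0.27 and 0.25. Ccl7, a further CCR2 ligand, was 2.67-fold above WT in NF1 and 2.64-fold higher in PKO than in WT. Ccl12, another CCR2 ligand, was highest in PKO, at 1.06, 10.6, 6.04 and 5.06 CPM in WT, PKO, NF1 and PKO-NF1. It was 5.69-fold above WT in NF1 (3.45 to 9.92), and in PKO-NF1 it was 2.09-fold below PKO.

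The growth factor gene Csf1 was 1.57-fold and 1.62-fold lower in the 2 Nf1 pairs, at 68.7, 72.7, 43.8 and 44.9 CPM in WT, PKO, NF1 and PKO-NF1, and Il34 was between 52.0 and 73.8 CPM. Gas6, which bridges MERTK to dying cells, stayed between 640 and 721 CPM. Apoe, a lipid carrier that TREM2 binds, was the most abundant ligand gene per length, at 1864 CPM in WT, 1981 CPM in PKO, 1145 CPM in NF1 and 2026 CPM in PKO-NF1. Clu, a second such carrier, was 2.59-fold below WT in NF1. Hp encodes haptoglobin, the cargo of CD163. It was at 312 CPM in WT, 352 CPM in PKO, 49.9 CPM in NF1 and 519.8 CPM in PKO-NF1, lowest in NF1 as Cd163 was. Fat is a known source of Hp, and the 6 adipocyte markers summed to 4628, 12135, 2092 and 8304 CPM, also lowest in NF1. The part of fat in the Hp counts was not tested.

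Of 9 tested partners of TREM2 and DAP12, 2 were higher in each Nf1 pair and 0 were lower, beside 10.4% and 5.20% of all genes higher. Clec5a, another receptor that signals through DAP12, was higher in both, 2.31-fold (1.74 to 3.09) and 2.45-fold (1.89 to 3.21), from levels of 4.07 CPM in WT and 4.72 CPM in PKO. The kinase gene Syk, at 28.6 to 39.1 CPM, passed 2-fold in no pair. With the length and GC trend removed, 0 of the 9 partners were called in any pair. Depending on the pair, 396 to 1025 of all 14700 genes were then higher and 671 to 1470 lower.

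Other genes of endoneurial and microglia-type macrophages gave a mixed picture beside Cx3cr1. Of 11 tested, 1 was higher in NF1 than in WT and 2 were higher in PKO-NF1 than in PKO, with 0 lower in either, beside 10.4% and 5.20% of all genes higher. Gpr34, a lysophospholipid receptor, was at 8.79 CPM in WT, 9.61 CPM in PKO, 28.4 CPM in NF1 and 18.5 CPM in PKO-NF1, 3.23-fold above WT in NF1 (2.69 to 3.90). P2ry12, the ADP receptor of microglia, was at 10.2, 4.50, 15.1 and 15.1 CPM, lowest in PKO as Cx3cr1 was. It was 3.35-fold higher in PKO-NF1 than in PKO (2.59 to 4.37). P2ry12 lies near the deleted P2ry14 gene and inside Med12l, so its counts are uncertain. With the trend removed, no gene of the list was called higher in either Nf1 pair, and 1 was lower in NF1 than in WT. Of all 14700 genes, 1025 and 396 were then higher in these pairs, and 671 were lower in NF1 than in WT.

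Of 15 tested genes of perivascular and epineurial-type macrophages, 10 were higher in PKO than in WT and 6 higher in PKO-NF1 than in NF1, with 0 lower in either, beside 10.0% and 7.90% of all genes higher. Both P2ry14-deleted libraries also had the high ribosomal shares and macrophage marker sums given above. The list's median log2 ratios were 1.19 and 0.82, and those of the 16 macrophage markers 0.51 and 0.83. The folate receptor gene Folr2 was 2.28-fold and 2.68-fold higher in those pairs, and the phosphatidylserine receptor gene Timd4 3.24-fold and 2.92-fold. Maf, a macrophage transcription factor gene, was at 118, 118, 90.8 and 76.7 CPM in WT, PKO, NF1 and PKO-NF1. Retnla, a gene of alternatively activated macrophages, was at 363, 915, 315 and 906 CPM in WT, PKO, NF1 and PKO-NF1. With the length and GC trend removed, 2 of 15 were higher in each of these pairs, where 570 and 838 of all 14700 genes were. The list's medians were then 0.38 and 0.64. The medians of the 16 macrophage markers were then 0.03 and 0.56. None of the 16 was then called in either pair, where 3 and 5 were higher before. In the Nf1 pairs that removal left 4 of the 15 lower in NF1 than in WT and 3 lower in PKO-NF1 than in PKO, where 0 were lower before it. Of all 14700 genes, 671 and 733 were then lower in these pairs. In NF1 against WT 1 of the 15 was higher both before and after the removal, and in PKO-NF1 against PKO 0 were. Of all genes, 1025 and 396 were higher after it.

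Of 10 tested monocyte genes, 0 were higher in NF1 than in WT and 1 was higher in PKO-NF1 than in PKO, beside 10.4% and 5.20% of all genes. In PKO against WT 4 were higher and in PKO-NF1 against NF1 6 were, beside 10.0% and 7.90%. Ly6c2, which marks classical monocytes, was at 0.590 CPM in WT, 2.81 CPM in PKO, 0.406 CPM in NF1 and 1.71 CPM in PKO-NF1. Dendritic cells are a further possible source of Ccr2. Their 7 markers summed to 59.6, 64.5, 63.2 and 109 CPM in WT, PKO, NF1 and PKO-NF1. This sum and Ccr2 were both highest in PKO-NF1, but the sum did not rise from PKO to NF1 as Ccr2 did. Cd209a alone was at 54.4 CPM in PKO-NF1. Each marker but Zbtb46 and Itgae was highest in that library. Zbtb46 was lowest there, at 6.71 CPM, and Itgae was highest in PKO. T and NK cell markers summed to 2.42, 7.31, 4.87 and 8.60 CPM, with Cd8a at 0 in 1 library or more. The part of these cells in the Ccr2 counts was not tested.

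Receptors of like function were read beside the scavenger and clearance receptors. Of 9 other scavenger receptors tested, 1 was higher and 1 lower in NF1 than in WT, where 10.4% of all genes were higher and 6.32% lower. Stab1, a macrophage and sinusoidal receptor, was at 221, 192, 126 and 111 CPM in WT, PKO, NF1 and PKO-NF1, 1.75-fold and 1.72-fold lower in the 2 Nf1 pairs. Of 15 clearance genes, 3 were lower in NF1 than in WT and 0 higher. With the trend removed 1 was lower, as were 671 of all 14700 genes. Axl, the sister receptor of Mertk, was at 402 CPM in WT, 330 CPM in PKO, 278 CPM in NF1 and 243 CPM in PKO-NF1, and was 1.22-fold lower in PKO than in WT, where Mertk was 2.51-fold lower. Of 10 other chemokine receptors, 3 were higher and 1 lower in NF1 than in WT, and 0 higher and 2 lower in PKO-NF1 than in PKO, where the shares over all genes were 5.20% and 9.71%. With the trend removed these were 1 and 1, and 0 and 3, beside 1025 and 671, and 396 and 733, of all 14700 genes. Ccr1, an inflammatory chemokine receptor, was 2.74-fold above WT in NF1 (2.29 to 3.30) and 1.59-fold higher in PKO-NF1 than in PKO. Ackr1, a chemokine-binding receptor of venules, was 2.70-fold and 2.68-fold lower.

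Markers of other cell types in the nerve gave the background for these levels. Blood endothelial markers (7 genes) summed to 572, 669, 198 and 370 CPM in WT, PKO, NF1 and PKO-NF1, and Schwann cell markers to 22693, 32716, 7906 and 18210 CPM, both lowest in NF1. Fibroblast markers were between 8268 and 14653 CPM. Mast cell markers were higher in PKO (1057 CPM) and PKO-NF1 (956 CPM) than in WT (397 CPM) and NF1 (394 CPM). Of the 6 tested, 4 were higher in PKO than in WT and 4 in PKO-NF1 than in NF1. The shares over all genes were 10.0% and 7.90%. With the length and GC trend removed, 0 of the 6 were called in either pair, where 570 and 838 of all 14700 genes were higher. Neutrophil markers were at 8.10 to 16.7 CPM and B and plasma cell markers at 8.07 to 97.8 CPM. Their part in the levels of the 9 genes was not tested.

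Likeness of pattern was measured as the root mean square distance of centred log2 CPM over the 4 libraries, among 11448 genes. Cx3cr1 and Mertk had few genes near them, 7 and 25 within 0.2, against 790 for Mrc1 and 772 for Csf1r. The nearest to Cx3cr1 were the zinc finger genes Zfp97 (0.088), Zfp677 (0.095) and Zfp951 (0.140). For Mertk they were Kcna6 (0.084), Ptprj (0.108) and Ncam1 (0.111). Ccr2 lay nearest to AW209491 (0.031), Il13ra1 (0.039) and the ribosomal RNA precursor Rn45s (0.064), and Tyrobp to Supt4a (0.045), Atox1 (0.052) and Fth1 (0.059). The nearest genes were Kcne4, Elovl1 and Hyal2 for Cd163, Suclg2, Pfn1 and Csnk2b for Mrc1, Ndfip2, Myct1 and Plin2 for Csf1r, Chn2, Rhob and Tmem176a for Lyve1, and Fancl, Spryd4 and Hprt for Trem2. Among the 9 genes themselves, Mrc1 and Csf1r were closest (0.18), and Cx3cr1 and Tyrobp were farthest apart (1.35). Each distance rests on 4 points, and all genes share the depth and composition of those libraries.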

How the data were processed

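Sciatic nerve RNA of 4 genotypes was sequenced, 1 library each. The authors deposited whole-number counts for 24062 gene symbols. Per the submitters' processing notes, the build was mm10 and the tools were HISAT2 2.0.5, featureCounts 1.5.2 and FastQC 0.11.7. Not given in the sources used here were the strand setting, the annotation and the treatment of multi-mapped reads, so counts of overlapping genes are uncertain. Library totals were 14111201 (WT), 20362685 (PKO), 19064779 (NF1) and 17771101 (PKO-NF1), scaled with TMM factors of 1.20, 0.873, 1.03 and 0.922 (edgeR 4.0.16, R 4.3.3).

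Ratios were taken for 4 pairs, with exact conditional (Clopper-Pearson) intervals and no p-value. The additive model used edgeR glmQLFit and glmQLFTest on genes at 1 CPM in at least 2 libraries, with Benjamini-Hochberg adjustment over all genes and DESeq2 1.42.0 as the alternative. The length and GC trend was a spline with 4 degrees of freedom for each, fitted per pair over all genes. Gene models and coordinates came from GENCODE M21 and RefSeq GRCm38.p6, which matched 98.4% of symbols. The ratios were checked on simulated counts with counting error only, and the additive model on counts simulated with less spread than estimated here. Those settings are easier than the data, so the checks do not give the error rates of these results.

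The 9 genes and the 20 further lists (203 entries) were chosen with earlier results of these data known. Adgre1 was found as Emr1 and Adgrb1 as Bai1, and 2 entries (Trac and Ly6g) had no row. Genes named from a list were up to 3 called in each direction per pair and the 3 most abundant. Genes named for likeness were the 3 nearest at a mean of 5 CPM or more, without predicted genes. Csf1, Il34, Syk, Emr1, Maf, Xirp1, Ccl21a and Cd8a fall outside that rule and were chosen after their values were seen.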

Additional observations from a re-analysis of the deposited data

Results flagged for a closer look

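Csf1r, Mertk and Lyve1 were lower in NF1 than in WT and higher in PKO-NF1 than in PKO, with counting intervals that excluded 1 in both pairs. The log2 ratio in the second pair exceeded that in the first by 0.57 for Csf1r, 1.32 for Mertk and 1.01 for Lyve1. Differences at least as large were seen for 37.6%, 10.9% and 17.1% of all genes. With the length and GC trend removed, Csf1r in NF1 against WT turned to 0.04 and Lyve1 in PKO-NF1 against PKO to -0.31. Scaled to macrophage markers, Csf1r, Mertk and Lyve1 were lower in PKO-NF1 than in PKO, at -0.34, -0.09 and -0.42. With 1 library per genotype the difference was not tested against a spread between animals. The muscle share of 6.20% in NF1 enters only the first pair, and its part in these values was not tested.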

How the results depend on the processing

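No paired analysis was possible because each genotype has 1 library and the labels give no replicate numbers. Leaving out a library leaves the additive model no residual degree of freedom, so no such fit was made. Scaling to total counts alone shifted the median of all genes by -0.22 (NF1 against WT), 0.07 (PKO-NF1 against PKO), -0.54 (PKO against WT) and -0.17 (PKO-NF1 against NF1) on the log2 scale. DESeq2 size factors and removal of the muscle genes moved no log2 ratio of the 9 genes by more than 0.016. Scaling to macrophage markers and the trend with RefSeq transcripts were added after seeing the data.

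Of the 9 genes, those higher in NF1 than in WT went from 1 to 0 with total counts, 2 with the trend from the longest transcripts removed, 0 scaled to macrophage markers and 3 at 1.5-fold. Those lower went from 1 to 3, 2 (also 2 with RefSeq transcripts), 3 and 3. Scaled to macrophage markers, 1 was higher in PKO-NF1 than in PKO (2 before), and 0 were higher (2 before) and 1 lower (0 before) in PKO-NF1 than in NF1, where 5 were higher at 1.5-fold. The median log2 ratio of all genes on the macrophage marker scale was -0.24 in NF1 against WT, -0.57 in PKO-NF1 against PKO and -0.997 in PKO-NF1 against NF1. Calls over all genes were not counted on that scale, so its counts are not read as a result about the 9 genes. In PKO against WT, 0 were higher with either trend removed (1 before) and 2 at 1.5-fold. The difference between Nf1 pairs turned from -0.15 to 0.15 for Mrc1 with total counts and from -0.50 to 0.17 for Tyrobp with the RefSeq trend removed. The cause was not tested.

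Over all genes at 1.5-fold, counts of higher and lower genes were 2817 and 2449 in NF1 against WT (1531 and 929 at 2-fold), 2295 and 2955 in PKO-NF1 against PKO (764 and 1428), 2382 and 2248 in PKO against WT (1474 and 768), and 2933 and 3542 in PKO-NF1 against NF1 (1162 and 2031). Total counts gave 1580 lower genes in NF1 against WT, 762 higher and 2713 lower in PKO against WT, and 765 higher in PKO-NF1 against NF1. With the trend removed (longest transcripts, then RefSeq) there were 426 and 396 higher and 726 and 733 lower genes in PKO-NF1 against PKO, and 748 and 570 higher in PKO against WT. The Nf1 term called 0 genes by edgeR, 284 by DESeq2, 1091 with total counts and 46 without the low-count filter. The P2ry14 term called 7, 724, 2627 and 108.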
